A study of Mus musculus with 2 samples.

Results

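The meningeal fibroblast and barrier genes are a set of 37 genes, chosen by name, that mark the fibroblasts of the pia, arachnoid and dura, the arachnoid barrier layer and the perivascular sheath in mouse brain. A gene entered with the probe sets that carry its symbol alone, and its value came from the probe set with the highest mean signal. In this way 36 of the 37 genes were measured, of 18193 genes in all, among them Nov under its current symbol Ccn3, while Spp1 was not analysed here. Collagens were kept out of the set. Cortical RNA was compared between P4H-TM KO mice, which lack the transmembrane prolyl 4-hydroxylase encoded by P4htm, and their WT littermates. All mice were untreated males of the C57BL/6J strain aged 2.5 months. RNA of 4 mice was pooled for each genotype and hybridized to 1 Affymetrix mouse genome array, which gave 2 arrays in all. The values are log2 expression, and every difference is P4H-TM KO minus WT. Because each genotype has 1 array, there is no replicate check of any value, and neither a test nor an SD between animals can be had. As a yardstick, only probe sets with a mean signal of at least 6.385, the median of all probe sets, were taken. Those of the same gene scattered around their mean difference with an SD of 0.101, pooled over the 5101 genes with several such probe sets. Dimmer probe sets are not covered by this SD, and it does not measure variation between arrays or animals.

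The meninges wrap the brain and follow its arteries inward. Their fibroblasts lay down collagen-rich matrix and the outer basement membrane of the cortex, and they release growth factors and retinoic acid. The cells of the arachnoid barrier are joined by E-cadherin and tight junctions and carry transporters that move organic anions, cations and amino acids between cerebrospinal fluid and blood. In RNA of whole tissue, a change in the number of such cells and a change in RNA per cell cannot be told apart.

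The labels were checked first. P4htm had 9.10 in P4H-TM KO and 11.05 in WT on its brightest probe set, a difference of −1.95. A dimmer probe set gave −1.64. The position of either one with respect to the deleted sequence was not looked up here. Of 11 measured markers of cortical excitatory neurons, 11 in P4H-TM KO and 10 in WT reached the signal filter of 6.385, the median of all probe sets, and their median difference was 0.03. The choroid plexus makes cerebrospinal fluid, and 13 of 13 measured markers of its epithelium had higher values in P4H-TM KO. Their differences ran between 0.37 for Ttr, the transthyretin gene, and 2.21 for Kcnj13, with a median of 1.58. The mean level of the markers was 9.39 in P4H-TM KO and 7.89 in WT. On its brightest probe set Ttr had 14.86 in P4H-TM KO and 14.49 in WT, near the top value on the arrays of 14.91. The other probe sets of Ttr differed by 0.42 to 0.96. All 13 reached the filter in P4H-TM KO, as did 11 in WT. Kcnj13, a potassium channel gene of that epithelium, had 10.54 in P4H-TM KO and 8.33 in WT. Folr1, its folate receptor gene, had 9.40 in P4H-TM KO and 7.53 in WT. The part of that tissue in the values below was not tested.

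Most of the meningeal genes had a higher value in P4H-TM KO. The members were chosen with earlier results of these data known, so the shares below describe the set and are no independent test of it. Of the 36, 32 were higher and 4 lower at any size, against 46.0% and 49.0% of all genes. Their median difference was 0.245, and the median over all genes was 0. A threshold of 1.2-fold was passed upward by 18 of the 36, against 4.12% of all genes, and downward by 1, against 4.91%. Of the 30 members at or above the signal filter, 6 were at least 1.5-fold higher, against 0.631% of the 11730 genes above it, and none was 1.5-fold lower, against 0.0512%. These 6 were Igfbp2, Dcn, Igf2, Pcolce, Ogn and Mgp, all of which encode secreted proteins, as do many of the other members. Of the 6 members below the filter, Slc47a1 and Crabp2 were also past 1.5-fold, which made 8 of 36 without the filter, against 0.61% of all genes, and still none was 1.5-fold lower, against 0.148%. No member reached 2-fold. Across the 36 genes the difference was only weakly related to the mean signal (Spearman's rho 0.176, Pearson's r 0.0451, across genes of 1 pair of arrays, which are not independent).

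**Figure D1:**
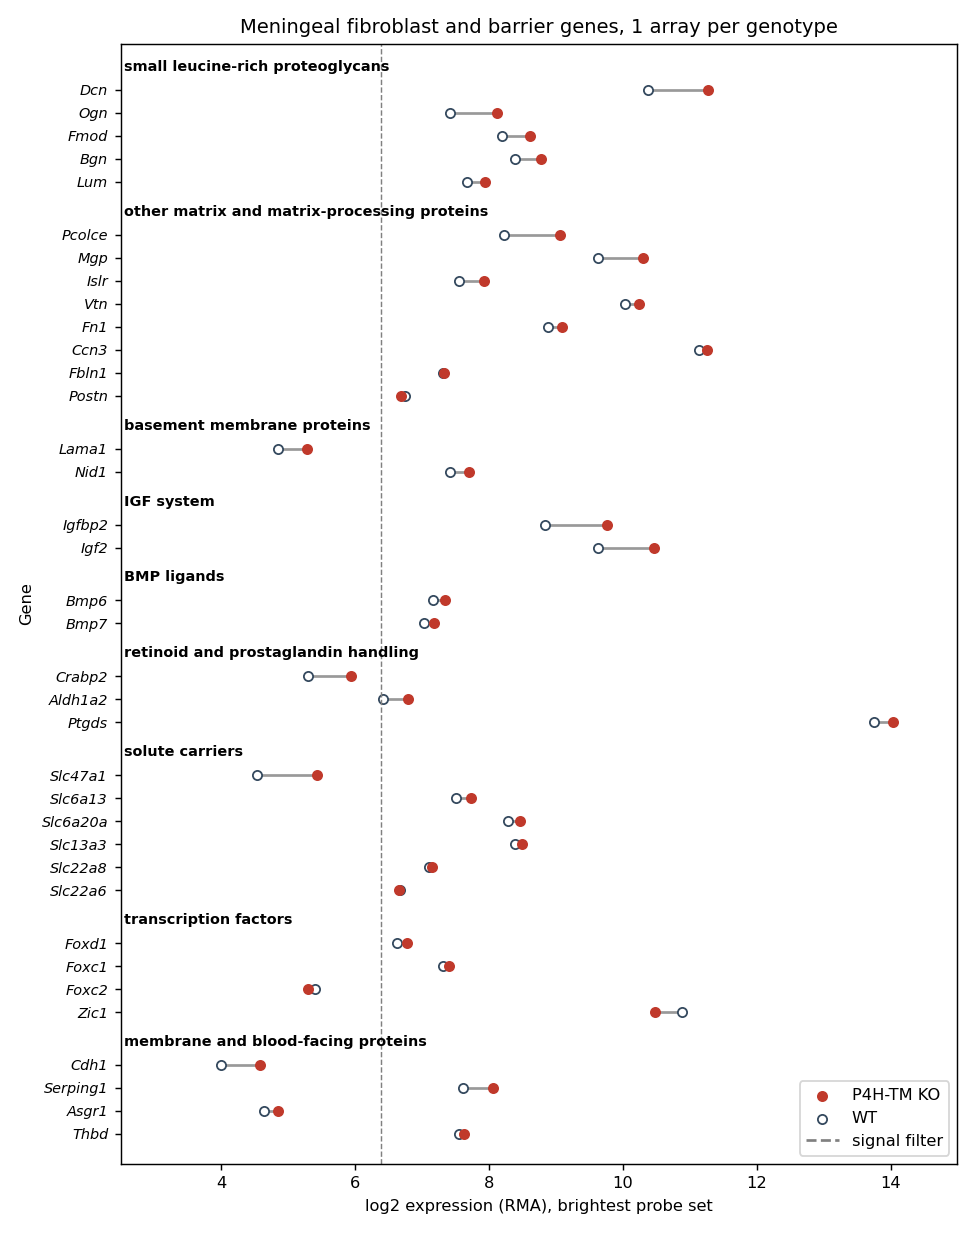
Log2 expression of each measured member on the P4H-TM KO array (red points) and the WT array (open circles), grouped by role and ordered by difference within a role; the dashed line is the signal filter at 6.385, and there is no error bar with 1 array per genotype. The widest gaps belong to Igfbp2, Dcn and Slc47a1, and Zic1 has its P4H-TM KO value to the left of its WT value.

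To show the sequence in front of some of the members that differed in either direction, the 250 bases upstream of the transcription start are given below for Igfbp2, Pcolce and Ogn, which passed 1.5-fold upward, and for Zic1 with its neighbour Zic4, which were both lower. They are RefSeq sequences of build GRCm38.p6, read 5′ to 3′ on the strand of the gene. The windows are chr1:72824230-72824479 on the plus strand, chr5:137611405-137611654 on the minus strand, chr13:49607765-49608014 on the plus strand, chr9:91365769-91366018 on the minus strand and chr9:91368722-91368971 on the plus strand. Igfbp2 has 2 listed starts, of which the upstream one is shown. Igf2, with several listed starts, is not shown, nor are Dcn and Mgp. Capitals mark matches, on either strand, to the GC box GGGCGG, the TATA box TATAAA, the TEAD motif CATTCC or the ZIC motif CAGCAGG.
Igfbp2: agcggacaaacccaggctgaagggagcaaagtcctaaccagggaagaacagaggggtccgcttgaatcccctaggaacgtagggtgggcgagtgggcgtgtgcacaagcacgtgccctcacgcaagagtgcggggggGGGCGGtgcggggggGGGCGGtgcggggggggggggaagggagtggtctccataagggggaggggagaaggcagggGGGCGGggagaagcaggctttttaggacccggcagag
Pcolce: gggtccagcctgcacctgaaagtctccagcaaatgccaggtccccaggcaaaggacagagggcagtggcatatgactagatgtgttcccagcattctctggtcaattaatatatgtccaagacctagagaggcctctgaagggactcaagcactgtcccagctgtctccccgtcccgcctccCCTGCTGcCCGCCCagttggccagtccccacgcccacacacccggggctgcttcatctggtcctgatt
Ogn: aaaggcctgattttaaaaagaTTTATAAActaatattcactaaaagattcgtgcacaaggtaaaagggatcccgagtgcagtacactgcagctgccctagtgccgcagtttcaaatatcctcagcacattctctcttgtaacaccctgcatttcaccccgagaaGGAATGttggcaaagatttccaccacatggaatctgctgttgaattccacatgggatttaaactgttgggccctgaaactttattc
Zic1: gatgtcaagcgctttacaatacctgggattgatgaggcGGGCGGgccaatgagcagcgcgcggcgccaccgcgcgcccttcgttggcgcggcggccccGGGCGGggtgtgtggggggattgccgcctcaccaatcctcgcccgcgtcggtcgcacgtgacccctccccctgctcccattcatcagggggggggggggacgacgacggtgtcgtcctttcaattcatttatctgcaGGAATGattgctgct
Zic4: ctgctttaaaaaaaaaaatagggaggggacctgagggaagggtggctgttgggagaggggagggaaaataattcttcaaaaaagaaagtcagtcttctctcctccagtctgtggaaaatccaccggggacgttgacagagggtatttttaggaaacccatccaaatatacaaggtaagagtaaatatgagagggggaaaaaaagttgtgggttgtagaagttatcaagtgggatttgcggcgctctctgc
The Igfbp2 window held 3 GC boxes, that of Zic1 held 2 and a TEAD motif, and that of Pcolce held 1 GC box and a ZIC motif. Ogn had a TEAD motif and overlapping TATA box letters on opposite strands, far upstream of the start. None of the letters searched occurred in the Zic4 window. Also searched were the AP-1 motif TGANTCA and the forkhead motif TGTTTAC, which none of the 5 windows held. Over the 32 listed windows of the 23 members with a promoter sequence, a GC box occurred in 43.8%, against 32.7% of all 32851 promoter windows of the same length. TEAD letters occurred in 31.2% of the members' windows, against 12.6% of all, AP-1 in 9.38% against 6.75%, TATA in 9.38% against 12.4%, ZIC in 6.25% against 8.44%, and forkhead in none against 3.17%. Several starts of one gene share sequence, and a match is a run of letters, not a binding site.

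The small leucine-rich proteoglycans coat collagen fibrils and set their spacing. All 5 passed 1.2-fold upward in P4H-TM KO, against 4.12% of all genes, and their median difference was 0.41. Dcn, which encodes decorin, the founding member of the family, had 11.27 in P4H-TM KO and 10.37 in WT, a difference of 0.90 or 1.87-fold. It ranked at place 33 of the 11730 genes above the filter. Its dimmer probe set, below the filter, had 4.56 in P4H-TM KO and 4.46 in WT. Ogn, the gene of osteoglycin, had 8.12 in P4H-TM KO and 7.42 in WT, a difference of 0.70, and its second probe set differed by 0.60. The other members of the family stood closer together. Fmod, the gene of fibromodulin, had 8.61 in P4H-TM KO and 8.20 in WT. It has 6 probe sets, the most of any member, and all of them were higher in P4H-TM KO, by 0.31 to 0.76. Bgn, the gene of biglycan, had 8.78 in P4H-TM KO and 8.39 in WT, with 0.12 and 0.36 on its other probe sets. Lum, the gene of lumican, had 7.94 in P4H-TM KO and 7.67 in WT, the smallest difference of the 5.

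Among the other matrix and matrix-processing proteins, 7 of 8 measured genes had higher values, with a median of 0.205. Pcolce, which encodes an enhancer of the protease that trims procollagen, had 9.06 in P4H-TM KO and 8.22 in WT, or 1.79-fold. Its second probe set differed by 0.70. Mgp, the gene of matrix Gla protein, an inhibitor of calcification, had 10.30 in P4H-TM KO and 9.63 in WT, or 1.59-fold. Both were past 1.5-fold, and none of the following was. Islr, a secreted protein with leucine-rich repeats and an immunoglobulin domain, had 7.93 in P4H-TM KO and 7.55 in WT. Vtn, the gene of vitronectin, which brain pericytes also express, had 10.24 in P4H-TM KO and 10.03 in WT, and its probe sets differed by 0.21 and 0.23. Fn1, the gene of fibronectin, had 9.09 in P4H-TM KO and 8.89 in WT, with 0.45 on a dimmer probe set. The remaining 3 genes differed by about the scatter between probe sets or less. Ccn3, formerly Nov, a matricellular protein that cortical neurons also express, had 11.26 in P4H-TM KO and 11.14 in WT. Fbln1, the gene of fibulin-1, had 7.33 in P4H-TM KO and 7.31 in WT, with −0.06 and 0.16 on its other probe sets. Postn, the gene of periostin, had 6.69 in P4H-TM KO and 6.75 in WT, and so was the one matrix gene of the set with a lower value.

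Of the basement membrane genes, Nid1, whose product nidogen links laminin to collagen networks, had 7.70 in P4H-TM KO and 7.42 in WT. Its dimmer probe sets, both below the filter, differed by −0.11 and 0.13. Lama1, the laminin chain of the pial basement membrane, had 5.28 in P4H-TM KO and 4.85 in WT on its single probe set, below the filter. Both genes were thus higher on the brightest probe set, and neither reached 1.5-fold.

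The secreted factors of the set fall into a pair of systems with unlike sizes of difference. Insulin-like growth factor 2 is made in the adult brain mainly by the leptomeninges and the choroid plexus, and IGF-binding protein 2 accompanies it there. Igf2 had 10.47 in P4H-TM KO and 9.63 in WT, a difference of 0.84 or 1.79-fold. Its other probe set, below the filter, had 4.62 in P4H-TM KO and 4.56 in WT. Igfbp2 had 9.77 in P4H-TM KO and 8.84 in WT, a difference of 0.93 or 1.91-fold. This was the largest of the set, at place 29 of the genes above the filter, and was read on a single probe set. Of the other IGF system genes, 7 of 14 measured were higher and 6 lower, around a median of 0.01, and none passed 1.5-fold. Igfbp3 had the highest difference among those above the filter, at 0.43, and the insulin receptor gene Insr the lowest, at −0.08, with 0.08 and 0.13 on its other probe sets.
Bone morphogenetic proteins of the meninges signal to the cortex beneath. Bmp6 had 7.35 in P4H-TM KO and 7.17 in WT. Bmp7 had 7.18 in P4H-TM KO and 7.03 in WT, with 0.37 and 0.46 on its dimmer probe sets. Both ligands were higher by less than 1.2-fold. In the rest of the pathway, 19 of 29 measured genes were higher and 8 lower, around a median of 0.05, and none passed 1.5-fold. The ligand gene Bmp5 had a difference of 0.47, although one of its other probe sets gave −0.07, and Smad7, which encodes an inhibitor of the pathway, had −0.19.

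Retinoic acid from the meninges is formed by the enzyme encoded by Aldh1a2, and Crabp2 encodes a protein that carries it inside cells. Aldh1a2 had 6.79 in P4H-TM KO and 6.42 in WT. Crabp2 had 5.94 in P4H-TM KO and 5.30 in WT, or 1.56-fold, below the filter on both arrays. Ptgds encodes the prostaglandin D synthase that is among the most abundant proteins of cerebrospinal fluid and is made by arachnoid cells, choroid plexus and oligodendrocytes. It had 14.04 in P4H-TM KO and 13.75 in WT, near the top value on the arrays of 14.91, and its second probe set differed by 0.39. All 3 genes passed 1.2-fold upward, against 4.12% of all genes. The 11 measured oligodendrocyte markers were all lower, by 0.08 to 0.34. The part of each cell type in the Ptgds value was not tested. Of the other retinoid genes, 10 of 16 measured were higher and 6 lower, with a median of 0.10. Rbp4, the carrier of retinol in plasma, differed by 0.30 and Aldh1a1, a related synthetic enzyme, by −0.17.

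The solute carriers of the barrier did not move as a block. Slc47a1 encodes MATE1, an exporter of organic cations, and had 5.43 in P4H-TM KO and 4.53 in WT, or 1.87-fold, on a single probe set below the filter on both arrays. The remaining 5 were above the filter and differed by −0.01 to 0.22. Slc6a13, a GABA and taurine transporter gene, had 7.73 in P4H-TM KO and 7.51 in WT. Slc6a20a, a transporter gene for proline, had 8.47 in P4H-TM KO and 8.28 in WT. Slc13a3, a dicarboxylate transporter gene that astrocytes also express, had 8.49 in P4H-TM KO and 8.39 in WT, and its other probe sets ran between −0.08 and 0.11. The organic anion transporter genes differed least. Slc22a8 (OAT3) had 7.15 in P4H-TM KO and 7.11 in WT. Slc22a6 (OAT1) had 6.66 in P4H-TM KO and 6.67 in WT, with 0.12 on its dimmer probe set. These 2 genes lie next to each other on chromosome 19. Among further carriers of the same families, 8 of 17 were higher and 8 lower, with a median of 0. The sulfate transporter gene Slc13a4 stood apart, with 8.88 in P4H-TM KO and 7.95 in WT, or 1.91-fold, and Slc22a12 had −0.14.

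The transcription factors of the set differed little or were lower. Foxd1 had 6.77 in P4H-TM KO and 6.63 in WT. Foxc1, which in mouse is needed for the meninges to form, had 7.40 in P4H-TM KO and 7.31 in WT, with 0.21 on its other probe set. Foxc2 had 5.29 in P4H-TM KO and 5.40 in WT, below the filter. The 3 forkhead genes thus stayed below 1.2-fold. Zic1, a zinc finger factor of the meninges and of several brain regions outside the cortex, had 10.48 in P4H-TM KO and 10.89 in WT, a difference of −0.41. Its second probe set had 9.65 in P4H-TM KO and 10.06 in WT, which is again −0.41. It was the 37th lowest of the 11730 genes above the filter and the one member at least 1.2-fold lower. The other mesenchymal transcription factors had 7 of 20 higher and 12 lower, with a median of −0.02, and none reached 1.5-fold. The lowest among them above the filter was Zic4, with 6.65 in P4H-TM KO and 7.02 in WT, and −0.20 on its other probe set. Zic2 and Zic5, looked up after these values were seen, differed by −0.10 and −0.14. Prrx1 had the highest difference of that list on a brightest probe set above the filter, at 0.04.

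The membrane and blood-facing proteins were higher in all 4 cases, none at 1.5-fold. Cdh1, which encodes E-cadherin, the adhesion protein of the arachnoid barrier, had 4.58 in P4H-TM KO and 4.00 in WT, or 1.49-fold, below the filter on both arrays. Serping1, the gene of the C1 inhibitor of complement, had 8.06 in P4H-TM KO and 7.62 in WT, or 1.36-fold. Asgr1, a receptor gene best known from liver, had 4.85 in P4H-TM KO and 4.64 in WT, below the filter. Thbd, the gene of thrombomodulin, which endothelium also carries, had 7.63 in P4H-TM KO and 7.55 in WT. The 11 measured endothelial markers had a median difference of 0.09, close to that of Thbd, with none at 1.5-fold. Of the other genes of the arachnoid barrier, 6 of 11 were higher and 5 lower, with a median of 0.01. Krt18, a keratin gene of epithelial cells, was the one past 1.5-fold, with 7.39 in P4H-TM KO and 6.16 in WT, and its keratin partner Krt8, named after its value was seen, had 7.03 in P4H-TM KO and 6.60 in WT. Cldn11, which oligodendrocytes also express, was the lowest, with 11.22 in P4H-TM KO and 11.56 in WT.

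Matrix genes outside the set differed by list. Of 27 other fibroblast matrix genes, 22 were higher and 5 lower, with a median of 0.10. Of the 17 above the filter 1 was at least 1.5-fold higher, against 0.631% of all genes above it. This was Fbln5, an elastic fibre gene, with 7.66 in P4H-TM KO and 7.01 in WT, but 0.16 on its other probe set. Without the filter 3 of the 27 were, against 0.61% of all genes. Thbs2 was the lowest of the 17, with −0.09, while Dpt, below the filter, had −0.19. Of 16 other basement membrane genes, 11 were higher and 5 lower, with a median of 0.055, which was −0.055 on the dimmest probe sets. Ntn4 had 0.20 and Lamc1 −0.06, and on its other probe set 0.29. Nid2, the paralog of Nid1, picked out after its value was seen, had 5.91 in P4H-TM KO and 4.69 in WT, below the filter. Of 10 fibroblast collagens, 8 were higher and 1 lower, with a median of 0.315. Col8a1 was the highest, with 8.23 in P4H-TM KO and 6.79 in WT, although its other probe sets gave 0.18 and 0.62. Col3a1 had 8.32 in P4H-TM KO and 7.67 in WT, and Col1a2 had 9.66 in P4H-TM KO and 9.26 in WT, with −0.25 and 0.53 on its other probe sets. Col1a1 differed by 0.10. Col6a3, read on a single probe set, differed by −0.53 and was the 1 collagen of this list with a lower value.

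**Figure D2:**
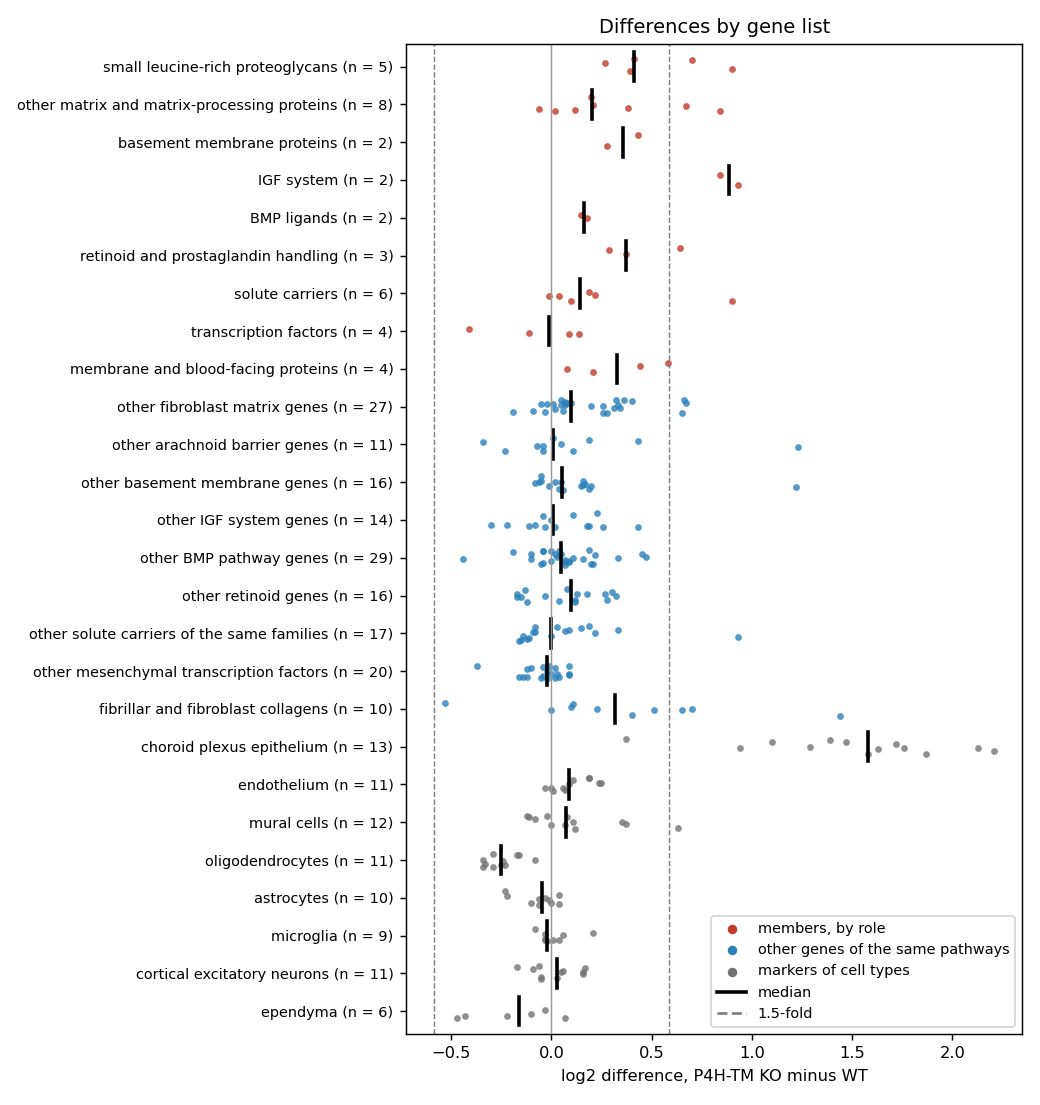
Log2 difference, P4H-TM KO minus WT, with 1 point per measured gene, for the members by role (red), other genes of the same pathways (blue) and markers of cell types (grey). Black bars are medians and dashed lines mark 1.5-fold; the proteoglycans center on 0.41 and the IGF pair on 0.885, the transcription factors on −0.01, and the choroid plexus markers on 1.58.

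Of the 36 members, 14 were listed as also known from other cell types, and they had a median difference of 0.245. The 22 others had the same median, with 18 higher and 4 lower, against 46.0% and 49.0% of all genes. Of these 22, 18 were above the filter and 4 were at least 1.5-fold higher there, against 0.631% of all genes above it. The 22 still held Ccn3 and Zic1, which are also expressed outside the meninges. The equal medians therefore do not set meningeal cells apart from other cell types. Set against neighbouring tissues, the member median of 0.245 lay between that of the choroid plexus markers, 1.58, and those of the endothelial markers, 0.09, and mural cell markers, 0.075. Smooth muscle actin, Acta2, was the highest mural gene, with 10.32 in P4H-TM KO and 9.69 in WT, but 0.07 and 0.31 on its other probe sets. Of the 12 measured mural cell markers, 7 were higher and 4 lower. A threshold of 1.2-fold was passed upward by 3 of them, against 4.12% of all genes, and downward by none, against 4.91%. Markers of astrocytes had a median of −0.045, of microglia −0.02 and of oligodendrocytes −0.25. The 6 ependymal markers, of the cells that line the ventricles, had a median of −0.16 with 5 lower. The difference between these lists was not tested, since each genotype has 1 array, and the part of these cell types in the members' values was not tested.

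Of the 36 members, 18 could be read on more than 1 probe set. For 14 of these 18 genes every probe set had the sign of the brightest one, and for 16 of 18 this held over the probe sets above the filter. The exceptions over all probe sets were Nid1, Slc13a3, Fbln1 and Slc22a6. Over the 64 probe sets of the 36 members, 55 were higher in P4H-TM KO and 9 lower. Dcn and Igf2 each combined a bright probe set past 1.5-fold with a dim one near 0, whereas Pcolce and Ogn had both probe sets past 1.5-fold.

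**Figure D3:**
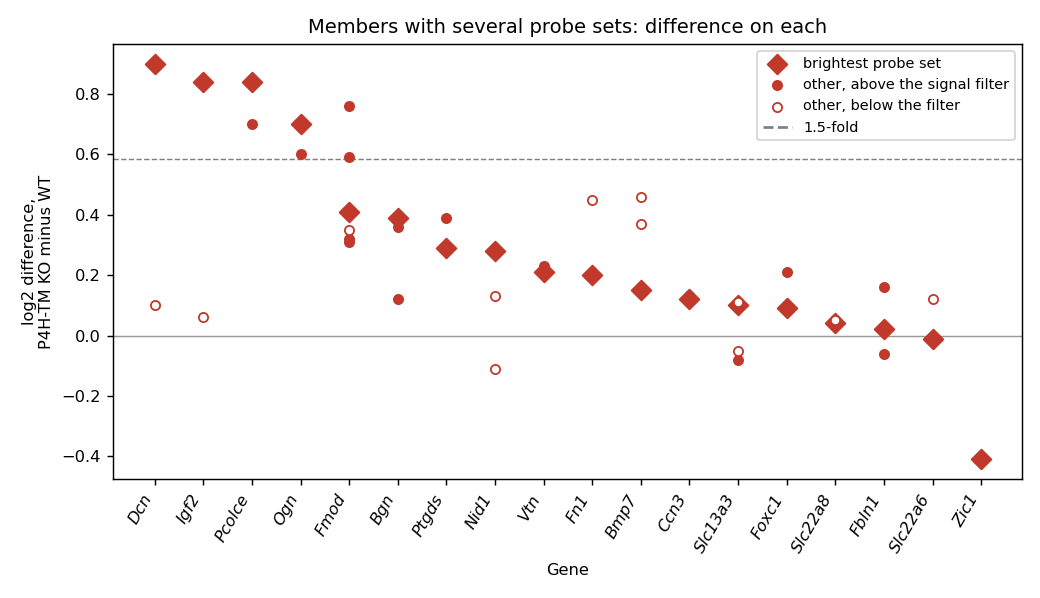
Log2 difference, P4H-TM KO minus WT, on each probe set of the 18 members that have several; diamonds are the brightest probe set, circles the others, open symbols lie below the signal filter and the dashed line marks 1.5-fold. All 6 probe sets of Fmod lie above 0, the dim ones of Dcn and Igf2 lie at 0.10 and 0.06, and both probe sets of Zic1 lie at −0.41.

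Some members have relatives beside them on the chromosome. By the RefSeq gene order, Ecm2, Aspn, Omd and Ogn follow each other on chromosome 13, and their differences were 0.67, 0.34, −0.02 and 0.70. The first 3 lay below the filter, and Ecm2 and Aspn each had −0.04 on another probe set. Dcn and Lum are neighbours on chromosome 10, with 0.90 and 0.27. Beyond Lum, Kera had 0.05 and Epyc 0.27, both below the filter. The genes just outside these clusters had 0.05 for Cenpp, 0.16 for Nol8, 0.03 for Btg1 and −0.07 for Ccer1. On chromosome 1, Optc, Prelp and Fmod had 0.21, 0.33 and 0.41, of which Optc lay below the filter. Zic1 and Zic4 stand next to each other on chromosome 9, at −0.41 and −0.37, between Tbc1d2b at 0.13 and Plscr1 at 0.11. P4htm lies on chromosome 9 as well, as do 4 of the 36 members. Counted in genes above the filter, these were 107 genes from P4htm for Slc6a20a (0.19), 122 for Zic1, 195 for Aldh1a2 (0.37) and 274 for Islr (0.38). They did not share a direction.

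**Figure D4:**
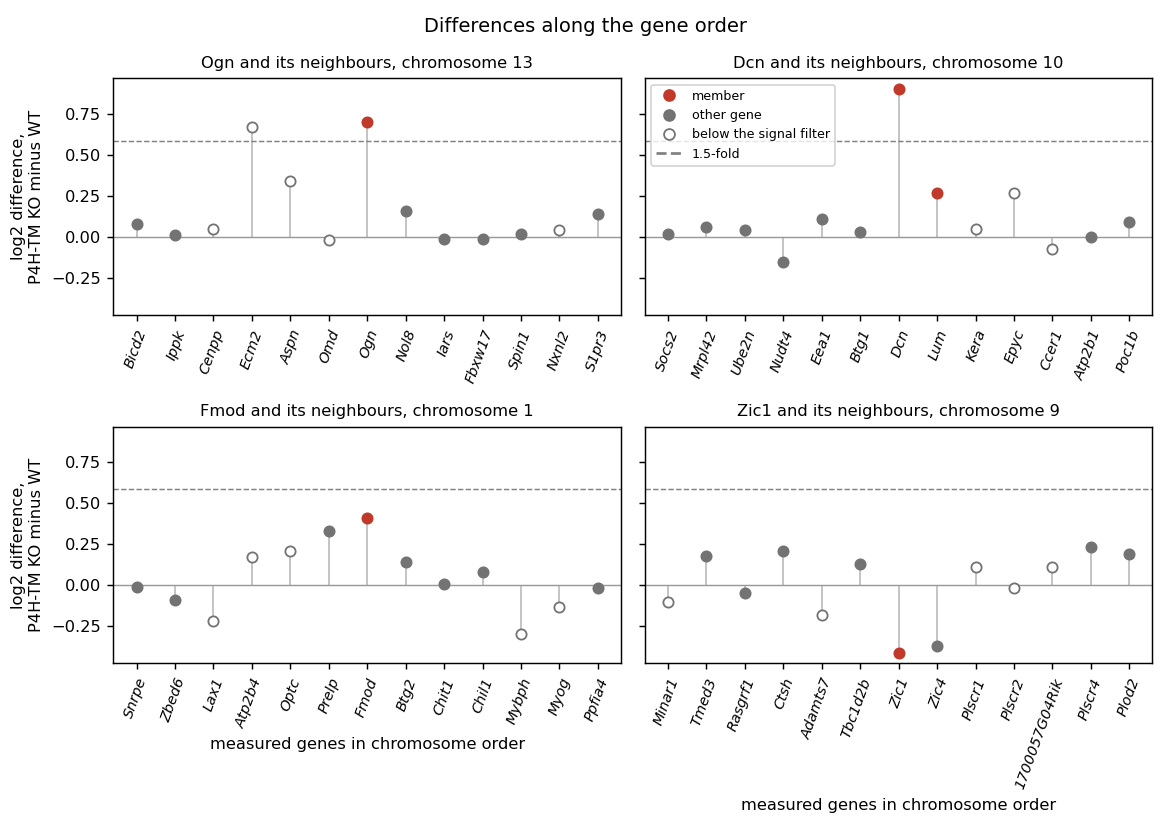
Log2 difference, P4H-TM KO minus WT, of measured protein-coding genes in chromosome order around Ogn, Dcn, Fmod and Zic1, with members in red, other genes in grey, open symbols below the signal filter and the dashed line at 1.5-fold. Ogn and Ecm2 stand at 0.70 and 0.67 and Dcn at 0.90, Prelp and Fmod at 0.33 and 0.41, and Zic1 and Zic4 together lie below 0.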

How the data were processed

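Cortical RNA of 1 pool of 4 mice per genotype was labelled with biotin and hybridized to Affymetrix arrays. The authors read the scans out in the GeneChip Operating System, normalization was done in GenePattern, and the submitters' processing notes name RMA, a method that corrects background, equalizes arrays and summarizes probe sets; its version is not given in the sources used here. The deposited values are log2 expression rounded to 2 decimals, with medians of 6.39 in P4H-TM KO and 6.38 in WT. The number of arrays limits the precision.

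Of 45101 probe sets, 64 are controls, most of them without a single symbol. Several symbols are given for 932 and none for 9211 in the platform annotation, controls included, and the 34945 others that are not controls named 18193 genes. Of these symbols, 18145 matched RefSeq GRCm38.p6, which was used for names, gene order and promoters. The gene value was that of the probe set with the highest mean. Counts used 1.5-fold and a mean of at least 6.385, and medians no filter. The counting was tested on simulated data.

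The members and lists were chosen with earlier results of these data known. Of 174 listed pathway genes 160 were measured. Named genes were all members, P4htm, the highest and lowest gene of each list above the filter (of the marker lists, only those the text needs), and Kcnj13, Folr1, Ttr, Col1a1, Col1a2 and Col3a1. The chromosome neighbours of members were chosen after their values were seen. The alternatives were the mean or the dimmest of a gene's probe sets, leaving out suffixed probe sets, centring, loess removal of the intensity trend (span 0.3), other filters and 2-fold. Python 3.11.15, numpy 2.4.6, pandas 2.3.3, scipy 1.17.1, statsmodels 0.14.6 and matplotlib 3.10.9 were used.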

Additional observations from a re-analysis of the deposited data

How the results depend on the processing

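The 6 members at least 1.5-fold higher above the filter numbered 4 to 8 under the other settings with that threshold. They numbered 0 at 2-fold, and none was 1.5-fold lower under any of these settings. The genes counted were not always the same. Without suffixed probe sets Igfbp2 and Pcolce had no value, and Fmod entered with 0.76. The member median of 0.245 stayed between 0.215 and 0.323 under 8 alternatives. Of 175 alternatives to single member differences, 168 kept the sign; the changes belonged to Fbln1, Nid1, Slc22a6 and Slc13a3. Dcn was 0.50 and Igf2 0.45 with probe sets averaged, both short of 1.5-fold. The median of the other arachnoid barrier genes was 0.118 as a mean, and that of the other basement membrane genes −0.055 on the dimmest probe sets. The collagen median of 0.315 was 0.19 with probe sets averaged, 0.045 on the dimmest and 0.48 without probe sets that can match several transcripts. P4htm differed by −1.80 with probe sets averaged, and by −1.64 on its dimmer probe set, which was also its value without the probe sets that can match several transcripts. The cause of these shifts was not tested. No paired analysis was possible because each genotype has 1 array.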

Other observations

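Other genes beside or related to members, picked out after their values were seen, included A2m, the gene of alpha-2-macroglobulin, a protease inhibitor. It lies close to Slc6a13 on chromosome 6 and had 8.18 in P4H-TM KO and 7.48 in WT, a difference of 0.70. Igfbp5, the neighbour of Igfbp2 on chromosome 1, differed by 0.11. Slc6a20b, a close relative of Slc6a20a, differed by −0.08 below the filter, and Slc6a12, beside Slc6a13, by −0.12.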
